A study of Mus musculus with 38 samples.

Results

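The livers of calorie-restricted (CR) mice and of fasted (F) mice, both labelled 22 h, were compared by RNA sequencing of messenger RNA. The comparison took the 7 libraries that the labels give as calorie restriction at 22 h (CR_22h, n = 4) and fasted at 22 h (F_22h, n = 3), out of 38 libraries in 13 groups, and covered the 13786 genes with enough counts of 21954 in the table. All came from wild-type female C57BL/6 mice with no transgene or drug named. CR mice are given less food each day, usually as a single meal, and F mice have their food removed. The title of the series names hepatic steatosis, the build-up of fat in liver cells, and circadian clocks as its subject. The labels leave out the zero point of the hours, the size of the CR ration and whether each replicate is a separate animal, so every test measures the spread between these samples, which may be technical. The labelled ages are 32 to 35 months in CR_22h and 36 to 38 months in F_22h and rise by 1 month with each sample, so age and diet cannot be told apart if these ages are right. Values of ad libitum livers at 22 h (AL_22h, n = 3, labelled 29 to 31 months, free access to food) are plotted as context only and were not tested here.

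As background, fat tissue releases fatty acids when food is absent, and the liver burns them or stores them as triglyceride in lipid droplets. The nuclear receptor PPARA senses fatty acids and switches on genes of their oxidation, of ketone body synthesis and of droplet coats. Feeding and insulin act in the other direction through the SREBP factors, which switch on the synthesis of fatty acids and cholesterol. CR mice usually eat their ration quickly and then go without food for most of the day. The labels do not say how long the CR_22h mice had been without food.

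Total expected counts per library lay between 17131271 and 29813551 in CR_22h and between 17285834 and 22452965 in F_22h. The libraries did not form 2 clean groups. CR_22h 3 lay beside the AL_22h libraries in the plot of principal components, and its log2 CPM values correlated with AL_22h at a mean r of 0.967, against 0.949 with the other CR_22h libraries. CPM is the count of a gene scaled to a common library total, with the library totals normalised between samples. CR_22h 3 also held 22.4 CPM summed over 10 skeletal muscle genes, against at most 0.729 CPM in each other CR_22h and F_22h library. The 3 F_22h libraries correlated best with each other, with a mean r of 0.97 or more. Counts are therefore also given without CR_22h 3, a choice made after seeing the data. Where leaving out this or another library ended the call of a gene given as called in CR_22h against F_22h, the library is named. For the differences between times, only the total number of calls is given with libraries left out, so single genes may have lost theirs.

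**Figure D1:**
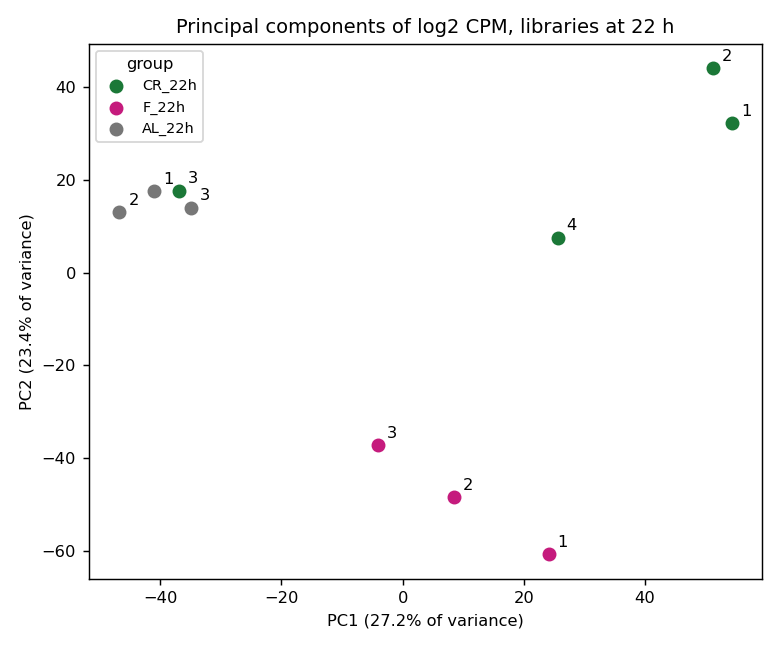
Principal components of log2 CPM over the libraries at 22 h, with PC1 (27.2% of the variance) on the x axis, PC2 (23.4%) on the y axis and 1 point per library labelled by replicate. The F_22h libraries lie at the bottom (PC2 of -60.8 to -37.2), CR_22h 1, 2 and 4 lie to the right (PC1 of 25.6 to 54.3), and CR_22h 3 (PC1 of -36.9) lies among the AL_22h libraries.

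Across all genes, 1302 differed between CR_22h and F_22h at an adjusted p below 0.05 (edgeR quasi-likelihood test with Benjamini-Hochberg adjustment), which is 9.44% of the genes tested. Of these, 707 were higher in CR_22h (5.13% of the genes tested) and 595 were lower (4.32%). The median absolute log2 fold change of the called genes was 0.94, and 593 differed by more than 1 on the log2 scale. The CR_22h and F_22h libraries did not overlap for 1076 of the called genes, against 16.8% of all genes tested without overlap (8.94% with CR_22h above and 7.91% with CR_22h below). The median over all genes was 0.01. In bulk liver, fewer cells of a type and less RNA per cell cannot be told apart. Without CR_22h 3, 1634 genes were called (11.9%, with 6.0% higher and 5.87% lower), and these held 1100 (84.5%) of the 1302. The count depended on single libraries, with 483 called without F_22h 1, 787 without F_22h 2 and 829 without CR_22h 2, and 372 of the 1302 (28.6%) kept their call in each of the 7 fits that left out 1 library. A fit on the 7 compared libraries alone, without the spread estimate of the other groups, called 260. It kept 49 of the 112 called genes named in this report. The 7 fits that left out 1 library still drew on the other groups for the spread. Fold changes, here and below, are log2 values of CR_22h minus F_22h with the standard error of the model after the ± sign.

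**Figure D2:**
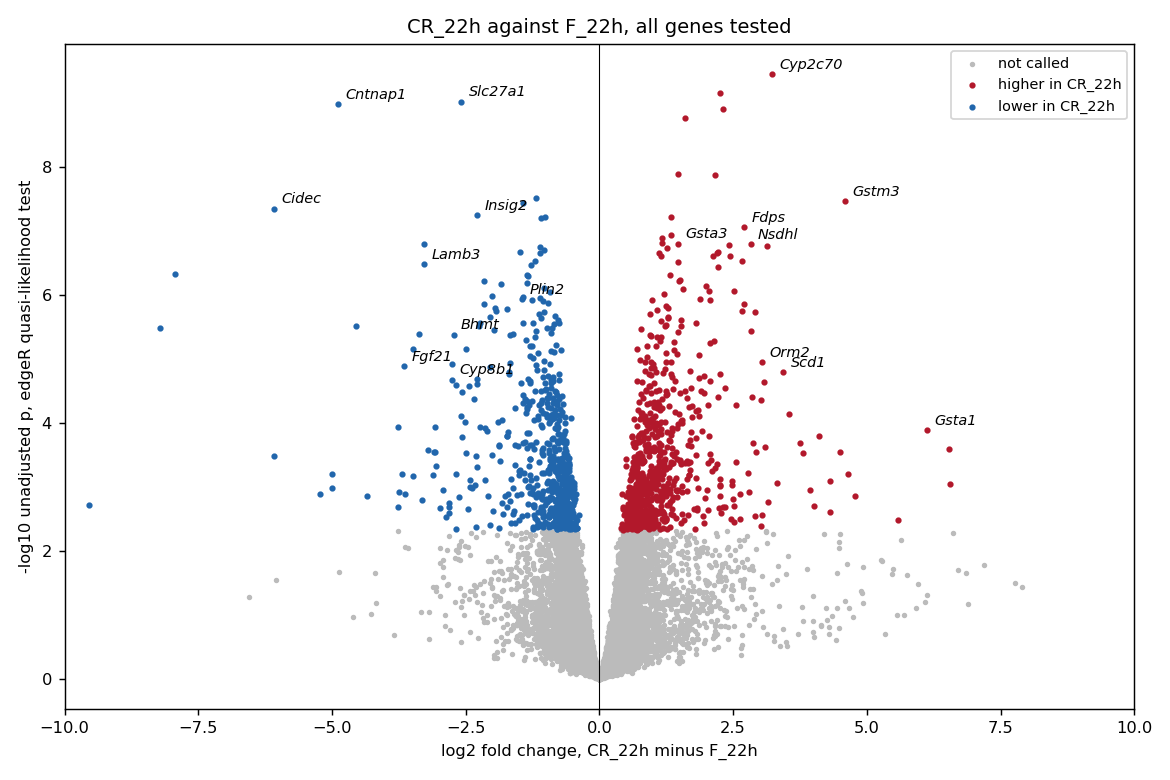
Log2 fold change of CR_22h minus F_22h (x axis) against -log10 of the unadjusted p (y axis) for the 13786 genes tested, 1 point per gene. The 707 genes called higher in CR_22h are on the right and the 595 called lower on the left, with Cidec at -6.08 and Cyp2c70 at 3.22 among those labelled.

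Cidec and Plin2, which coat and enlarge lipid droplets, were lower in CR_22h livers. Of 21 measured lipid droplet and lipolysis genes, 0 rose and 4 fell, which were Cidec, Plin2, Mgll and Fitm2, and the list median was -0.60. Cidec, whose protein fuses small droplets into large ones (chr6:113424634-113435760, GRCm38), stood at 1.46, 1.32, 1.19 and 0.441 CPM in CR_22h 1 to 4, against 172, 29.7 and 28.3 CPM in F_22h 1 to 3. The groups did not overlap, every CR_22h library lay near 1 CPM, and F_22h 1 stood far above the other F_22h libraries. The fold change was -6.08 ± 0.85 (adjusted p = 5.22e-05), and it was -4.69 without F_22h 1 (adjusted p = 0.00138). Plin2, the main coat protein of liver droplets (chr4:86648386-86670060), had 247, 271, 213 and 302 CPM in CR_22h, against 1100, 495 and 515 CPM in F_22h, with no overlap and a fold change of -1.45 ± 0.24 (adjusted p = 0.000258). Both kept their call in each of the 7 fits that left out 1 library. Fitm2, which helps droplets bud from the endoplasmic reticulum, fell by 1.08 ± 0.27 on the log2 scale (adjusted p = 0.00873). Mgll, a lipase of monoglycerides, changed by -1.18 ± 0.28 (adjusted p = 0.00686). Without F_22h 1, Fitm2 (adjusted p = 0.144) and Mgll (adjusted p = 0.143) lost their calls. The number that fell was 4 without CR_22h 3 and 2 without F_22h 1, and 1 member rose without CR_22h 3.

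Genes of triglyceride synthesis moved both ways. Of 15 measured genes of triglyceride synthesis, 3 fell (Gk, Mogat1 and Lpin3) and 1 rose, Dgat2, which makes triglyceride from diglyceride. Dgat2 had 780, 862, 692 and 559 CPM in CR_22h, against 457, 451 and 355 CPM in F_22h, a fold change of 0.78 ± 0.23 (adjusted p = 0.0248). Gk, which phosphorylates glycerol, had 122, 129, 93.8 and 147 CPM in CR_22h, against 307, 169 and 183 CPM in F_22h (fold change -0.84 ± 0.22, adjusted p = 0.0132). Without F_22h 1, Gk (adjusted p = 0.209) lost its call. Dgat2 lost its call without CR_22h 1, CR_22h 2, F_22h 1, F_22h 2 or F_22h 3 (adjusted p of 0.0558 to 0.0921). Mogat1 lost its call without CR_22h 2, CR_22h 4 or F_22h 1 (adjusted p of 0.0537 to 0.147). Lpin3 lost its call without CR_22h 1, CR_22h 4, F_22h 1, F_22h 2 or F_22h 3 (adjusted p of 0.0871 to 0.145). The number that fell was 3 without CR_22h 3, 1 without CR_22h 4 and 0 without F_22h 1. Slc27a1, a fatty acid transport protein that is usually low in liver, was among the genes with the smallest p in the whole comparison. It had 5.28, 6.58, 14.6 and 12.96 CPM in CR_22h, against 89.2, 38.2 and 49.9 CPM in F_22h, a fold change of -2.58 ± 0.30 (adjusted p = 3.54e-06) that held in each of the 7 fits. Slc27a2, the main fatty acid transport protein of liver, also fell (-0.83 ± 0.26, adjusted p = 0.0413), and 0 rose among 16 measured genes of fatty acid uptake and activation. Slc27a2 lost its call without CR_22h 2, CR_22h 3, CR_22h 4, F_22h 1 or F_22h 2 (adjusted p of 0.0542 to 0.333). The number that fell was 1 without CR_22h 2, CR_22h 4 or F_22h 1 and 2 without CR_22h 3.

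**Figure D3:**
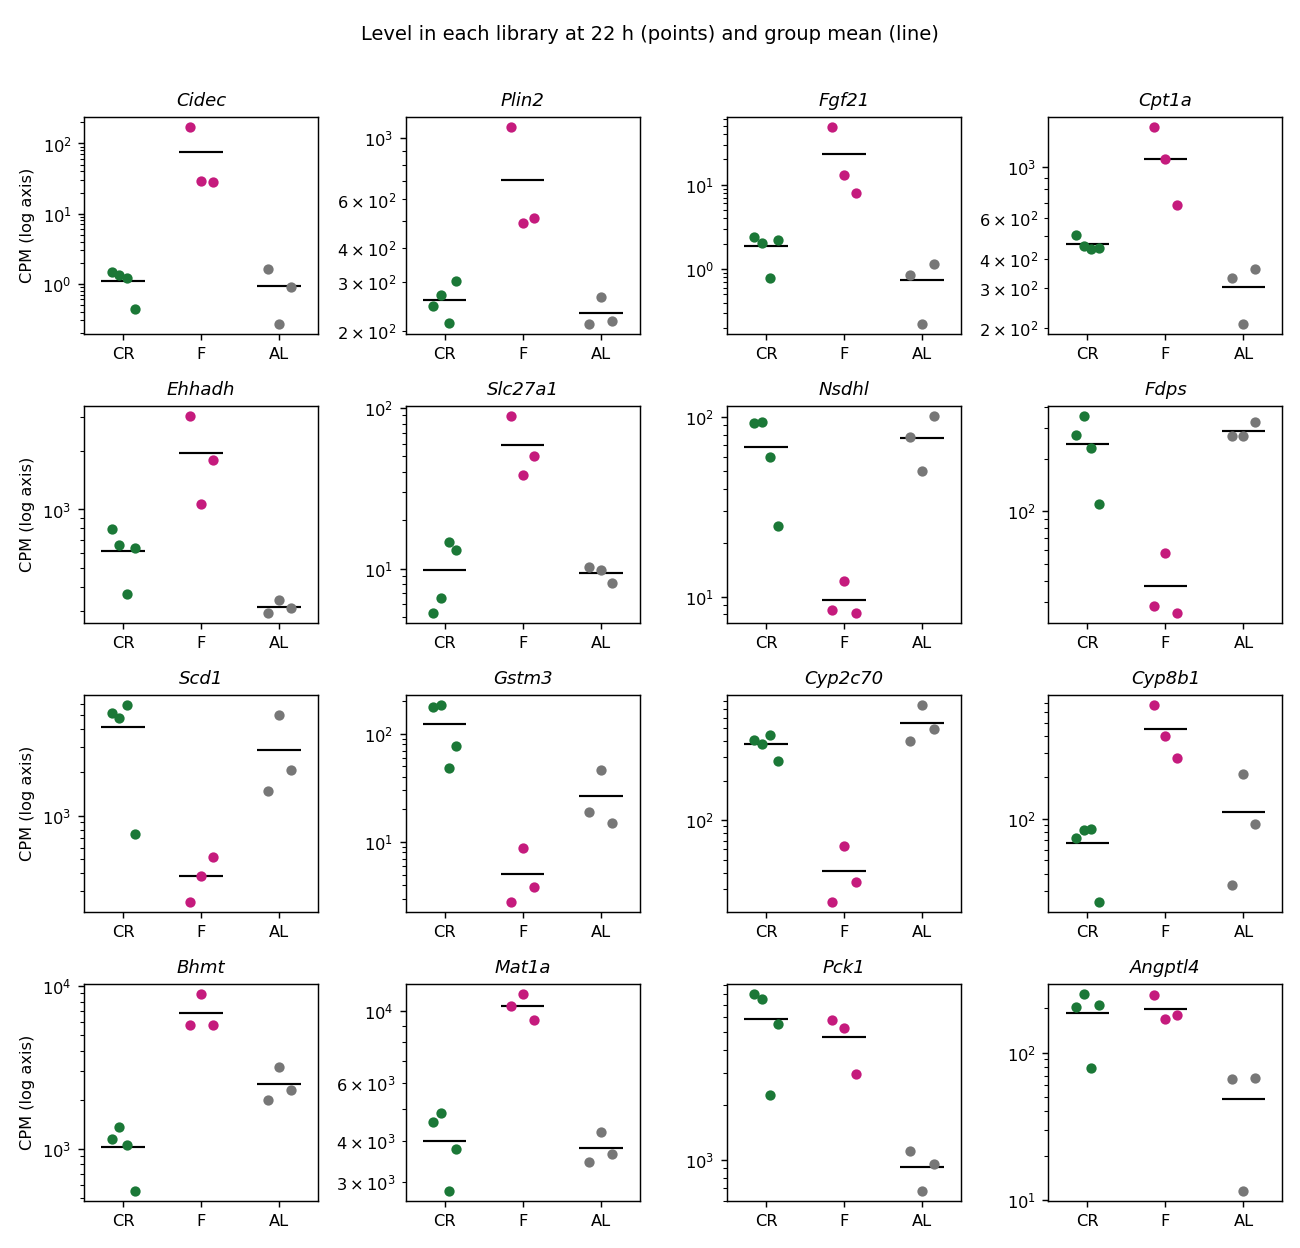
CPM on a log axis for 16 genes in each library at 22 h, with CR to the left, F in the middle and AL to the right, 1 point per library and a line at the group mean. Cidec, Plin2, Fgf21, Cpt1a, Ehhadh, Slc27a1, Cyp8b1, Bhmt and Mat1a lie lower in every CR library than in every F library, Nsdhl, Fdps, Scd1, Gstm3 and Cyp2c70 lie higher, and Pck1 and Angptl4 overlap.

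The genes that burn fatty acids were lower in CR_22h. Of 24 measured genes of mitochondrial fatty acid oxidation, 0 rose and 11 fell, with a list median of -0.81. Of 18 peroxisomal genes 0 rose and 6 fell, and of 32 targets of PPARA 0 rose and 15 fell, with a median of -0.93. Cpt1a, the gatekeeper for fatty acid entry into mitochondria, had 507, 456, 441 and 447 CPM in CR_22h, against 1491, 1082 and 686 CPM in F_22h. The CR_22h libraries were close together and the F_22h libraries ranged more widely above them, for a fold change of -1.23 ± 0.27 (adjusted p = 0.00399). Ehhadh, a peroxisomal enzyme with 2 activities of the chain-shortening cycle, had 793, 656, 369.6 and 634 CPM in CR_22h, against 3021, 1065 and 1787 CPM in F_22h, a fold change of -1.67 ± 0.30 (adjusted p = 0.000518). Among the mitochondrial genes, Etfdh, which passes electrons from the cycle to the respiratory chain, changed by -1.18 ± 0.23 (adjusted p = 0.00115). Decr1, which handles unsaturated fatty acids, changed by -0.90 ± 0.18 (adjusted p = 0.00171), and Acadm, the medium-chain dehydrogenase, by -1.09 ± 0.23 (adjusted p = 0.00272). Ehhadh, Etfdh, Decr1 and Acadm kept their call in each of the 7 fits. On the 7 compared libraries alone, Ehhadh passed (adjusted p = 0.0457). Etfdh (adjusted p = 0.0718), Decr1 (adjusted p = 0.0624) and Acadm (adjusted p = 0.0742) did not pass there. Without F_22h 1, Cpt1a (adjusted p = 0.0707) lost its call.

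The size of these lists rested partly on single libraries and on whether the other groups were in the fit. The mitochondrial count was 7 without CR_22h 3 and 3 without F_22h 1, against 11. The peroxisomal count was 2 without CR_22h 3 and 1 without F_22h 1, against 6, and the PPARA target count was 12 without CR_22h 3 and 5 without F_22h 1, against 15. On the 7 compared libraries alone, the mitochondrial count was 1, the peroxisomal count 1 and the PPARA target count 7. F_22h 1 had the highest level of Cidec, Plin2, Fgf21, Cpt1a and Ehhadh of the 3 F_22h libraries. Among the peroxisomal members, Abcd3, which carries fatty acids into the peroxisome, changed by -0.76 ± 0.21 (adjusted p = 0.0196), Hsd17b4, an enzyme of the chain-shortening cycle, by -0.95 ± 0.28 (adjusted p = 0.0248) and Crot, which makes carnitine esters, by -0.94 ± 0.29 (adjusted p = 0.0353). Without F_22h 1, Abcd3 (adjusted p = 0.191) lost its call. Hsd17b4 lost its call without CR_22h 3, CR_22h 4, F_22h 1 or F_22h 2 (adjusted p of 0.0587 to 0.204). Crot lost its call without CR_22h 1, CR_22h 2, CR_22h 3, F_22h 1 or F_22h 3 (adjusted p of 0.0614 to 0.236).

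Hadha and Hadhb encode the subunits of the mitochondrial trifunctional protein and lie head to head on chromosome 5. Hadhb (chr5:30155248-30184593, plus strand) had 253, 264, 139 and 223 CPM in CR_22h, against 587, 372 and 343 CPM in F_22h, and Hadha (chr5:30118304-30155162, minus strand) had 471, 451, 249 and 338 CPM in CR_22h, against 903, 631 and 500.1 CPM in F_22h. Both fell with no overlap of the groups, Hadhb with -0.98 ± 0.23 (adjusted p = 0.00694) and Hadha with -0.85 ± 0.23 (adjusted p = 0.0174). Hadha is named here because it shares a promoter window with Hadhb, and was chosen after its values were seen. Without F_22h 1, Hadhb (adjusted p = 0.113) lost its call. Hadha lost its call without CR_22h 3 or F_22h 1 (adjusted p of 0.0503 to 0.191). Their 300-base promoter windows in the RefSeq table (GRCm38.p6, 250 bases before to 50 after each start) overlap by 228 bases. The Hadhb window (chr5:30155003-30155302, plus strand, 5′ to 3′) is shown with the shared bases in capitals.
Hadhb: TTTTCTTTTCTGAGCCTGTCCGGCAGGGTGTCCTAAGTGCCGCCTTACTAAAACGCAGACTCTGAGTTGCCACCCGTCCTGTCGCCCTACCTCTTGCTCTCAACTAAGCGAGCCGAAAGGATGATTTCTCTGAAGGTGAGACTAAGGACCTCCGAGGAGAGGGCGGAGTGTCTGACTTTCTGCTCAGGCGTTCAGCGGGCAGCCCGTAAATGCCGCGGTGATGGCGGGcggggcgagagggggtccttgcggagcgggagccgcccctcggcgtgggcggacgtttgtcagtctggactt

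The omega oxidation genes Cyp4a10, Cyp4a31 and Cyp4a32, which hydroxylate fatty acids in microsomes, fell, but reads of such close paralogs may be shared between them. Cyp4a32 kept its call in each of the 7 fits, with 6.00, 6.33, 9.21 and 10.5 CPM in CR_22h, against 43.5, 23.5 and 26.9 CPM in F_22h (fold change -1.96 ± 0.35, adjusted p = 0.000468). Cyp4a10 was at 2052, 1678, 293 and 1293 CPM in CR_22h, against 6515, 5296 and 4107 CPM in F_22h (fold change -1.997 ± 0.61, adjusted p = 0.0329). Without F_22h 1, Cyp4a31 (adjusted p = 0.145) lost its call. Cyp4a10 lost its call without CR_22h 2, CR_22h 3, CR_22h 4, F_22h 1 or F_22h 2 (adjusted p of 0.0578 to 0.126). In the list of omega oxidation and acyl-CoA thioesterases, 4 of 14 fell and 1 rose, Acot13 (1.22 ± 0.31, adjusted p = 0.0101), which releases free fatty acids from their CoA esters. Acot13 lost its call without F_22h 1 or F_22h 2 (adjusted p of 0.0607 to 0.0718). The number that fell was 3 without CR_22h 3 and 1 without F_22h 1. Of 8 genes of ketone body synthesis and export, 2 fell, among them Acat1 (-0.86 ± 0.22, adjusted p = 0.011), a thiolase that joins acetyl groups. Without F_22h 1, Acat1 (adjusted p = 0.183) lost its call. The number of ketone body genes that fell was 1 without CR_22h 3, CR_22h 4 or F_22h 2 and 0 without F_22h 1.

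Fgf21, a fasting hormone released by the liver and a PPARA target, was low in CR_22h. Its level was 2.40, 2.06, 0.792 and 2.21 CPM in CR_22h, against 48.5, 13.04 and 8.05 CPM in F_22h, without overlap, and the fold change was -3.65 ± 0.71 (adjusted p = 0.00118), kept in each of the 7 fits, and it was -2.51 without F_22h 1. Several other genes known to respond to fasting did not pass the test. Angptl4, a PPARA target that blocks lipoprotein lipase, had 205, 249.8, 79.1 and 210.1 CPM in CR_22h, against 245, 170.3 and 181 CPM in F_22h (fold change -0.09 ± 0.45, adjusted p = 0.927). Pdk4, which shuts off glucose oxidation, had 32.7, 27.3, 7.07 and 204 CPM in CR_22h, against 176, 17.7 and 28.7 CPM in F_22h (fold change -0.14 ± 0.74, adjusted p = 0.938). CR_22h 4 and F_22h 1 held the high Pdk4 values. The receptor gene Ppara had 73.0, 57.7, 90.3 and 145 CPM in CR_22h, against 184, 125 and 129 CPM in F_22h (fold change -0.68 ± 0.31, adjusted p = 0.168). Without CR_22h 4, Ppara passed with -0.99 (adjusted p = 0.0426).

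Few genes of glucose production passed the test. Of 17 measured gluconeogenesis genes 0 rose and 1 fell, with a list median of 0.18. That is 5.88% of the list called, against 9.44% of all genes tested. Pck1, the first committed enzyme, had 8039, 7587, 2264 and 5487 CPM in CR_22h, against 5833, 5222 and 2960 CPM in F_22h (fold change 0.32 ± 0.57, adjusted p = 0.772). G6pc, which releases free glucose, had 636, 734, 70.3 and 645 CPM in CR_22h, against 745, 613 and 435 CPM in F_22h (fold change -0.20 ± 0.42, adjusted p = 0.816). In both genes CR_22h 3 was the lowest of the 7 libraries, and the other CR_22h libraries overlapped F_22h. The member that fell was Creb3l3 (-0.75 ± 0.19, adjusted p = 0.0102), a membrane-bound transcription factor of fasting liver. Without F_22h 1, Creb3l3 (adjusted p = 0.0873) lost its call. Igfbp1, an insulin-repressed binding protein, was at 112, 122, 19.3 and 349 CPM in CR_22h, against 653, 343 and 93.4 CPM in F_22h (fold change -1.27 ± 0.82, adjusted p = 0.347). Igf1, the growth factor made by the liver, had a fold change of 0.04 ± 0.25 (adjusted p = 0.95). A p above the threshold does not show that these levels were equal.

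The genes of cholesterol synthesis were higher in CR_22h. Of 21 measured members 11 rose and 0 fell, with a median of 1.24. Nsdhl, which removes methyl groups from the sterol ring (chrX:72918557-72958514), had 92.4, 94.2, 60.2 and 24.6 CPM in CR_22h, against 8.40, 12.2 and 8.09 CPM in F_22h. Every CR_22h library lay above every F_22h library, CR_22h 4 was the lowest of its group, and the fold change was 2.83 ± 0.42 (adjusted p = 9.48e-05). Fdps, which makes the farnesyl chains that become squalene (chr3:89093588-89101959), had 276, 353, 232 and 111 CPM in CR_22h, against 28.5, 57.2 and 26.0 CPM in F_22h, a fold change of 2.71 ± 0.39 (adjusted p = 7.13e-05). Pmvk, an enzyme of the mevalonate arm, changed by 2.04 ± 0.33 (adjusted p = 0.000216), Acat2 by 1.24 ± 0.23 (adjusted p = 0.000821) and Cyp51, the lanosterol demethylase, by 1.84 ± 0.40 (adjusted p = 0.00314). All 5 kept their call in each of the 7 fits. The number that rose was 7 without CR_22h 2, 9 without CR_22h 3 and 5 without F_22h 1. On the 7 compared libraries alone, it was 4.

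The RefSeq promoter table held windows for 16 of the 21 cholesterol synthesis members. The CCAAT box, searched on both strands as CCAAT, was present in 15 of their 19 windows (78.9%), against 37.4% of all 32851 windows. The sterol regulatory element, searched on both strands as TCACNCCAC, was present in 1 of the 19 windows (5.26%), against 1.24% of all windows. In the 13 windows of the members that rose, CCAAT was present in 9 (69.2%) and the sterol regulatory element in 0. CCAAT boxes bind the factor NF-Y, which is known to act beside SREBP factors at sterol genes. Windows of 3 members that rose are shown 5′ to 3′ because they hold the box on 1 or both strands, with CCAAT or its reverse complement in capitals. They are Nsdhl (chrX:72918271-72918570, plus strand), Lss (chr10:76531355-76531654, plus strand) and Idi1 (chr13:8885356-8885655, plus strand), all on GRCm38.p6. Without F_22h 1, Lss (adjusted p = 0.095) lost its call. Idi1 lost its call without CR_22h 1, CR_22h 2, F_22h 1 or F_22h 3 (adjusted p of 0.0544 to 0.105). A match describes these letters and is not a test of binding.
Nsdhl: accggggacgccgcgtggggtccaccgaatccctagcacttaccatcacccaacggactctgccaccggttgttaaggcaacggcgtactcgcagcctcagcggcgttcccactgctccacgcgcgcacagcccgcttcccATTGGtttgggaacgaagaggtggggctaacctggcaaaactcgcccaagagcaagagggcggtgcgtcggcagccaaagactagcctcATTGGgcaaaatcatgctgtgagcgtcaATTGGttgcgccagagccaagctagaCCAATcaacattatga
Lss: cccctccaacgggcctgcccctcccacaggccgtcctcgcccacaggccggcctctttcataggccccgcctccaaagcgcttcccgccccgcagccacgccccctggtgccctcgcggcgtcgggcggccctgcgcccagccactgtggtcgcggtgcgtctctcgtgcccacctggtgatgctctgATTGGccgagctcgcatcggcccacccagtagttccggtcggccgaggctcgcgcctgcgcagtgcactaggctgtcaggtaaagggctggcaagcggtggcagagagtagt
Idi1: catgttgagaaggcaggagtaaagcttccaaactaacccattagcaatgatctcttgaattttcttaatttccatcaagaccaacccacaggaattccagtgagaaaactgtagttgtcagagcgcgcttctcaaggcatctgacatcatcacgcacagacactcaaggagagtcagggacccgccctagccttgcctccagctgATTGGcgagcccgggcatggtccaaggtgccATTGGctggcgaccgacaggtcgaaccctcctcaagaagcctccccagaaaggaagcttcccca

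Genes that sense and regulate sterols moved both ways. Of 19 measured members 5 rose and 2 fell. Insig1 and Insig2 encode related proteins that hold SREBP in the endoplasmic reticulum, and they moved in opposite directions. Insig1 had 306, 308, 458 and 305 CPM in CR_22h, against 69.8, 113 and 102 CPM in F_22h (fold change 1.86 ± 0.37, adjusted p = 0.00157). Insig2 had 79.0, 95.0, 40.7 and 94.5 CPM in CR_22h, against 515, 212 and 401 CPM in F_22h (fold change -2.28 ± 0.32, adjusted p = 5.5e-05). Soat2, which esterifies cholesterol, rose by 1.40 ± 0.26 (adjusted p = 0.000628). These 3 genes kept their call in each of the 7 fits. The number that rose was 4 without CR_22h 3 and 3 without F_22h 1, and the number that fell was 1 without CR_22h 2, F_22h 1 or F_22h 2 and 3 without CR_22h 3.

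In de novo lipogenesis, 6 of 25 measured genes rose and 3 fell, with a median of 0.65. Scd1, which makes monounsaturated fatty acids (chr19:44394455-44407879), had 5199, 4774, 5877 and 743 CPM in CR_22h, against 252, 380.5 and 514 CPM in F_22h. CR_22h 4 lay just above the F_22h libraries and the other CR_22h libraries far above them, for a fold change of 3.44 ± 0.68 (adjusted p = 0.00137). Srebf1, the gene of the SREBP1 factors, had 184, 176, 414 and 69.4 CPM in CR_22h, against 59.8, 47.5 and 43.5 CPM in F_22h, and CR_22h 3 was the highest (fold change 2.07 ± 0.38, adjusted p = 0.000641), with 1.51 without CR_22h 3 (adjusted p = 0.00325). Fatty acid synthase, Fasn, had 344, 241, 442 and 73.4 CPM in CR_22h, against 168, 166 and 107 CPM in F_22h, with overlap, and did not pass (fold change 0.90 ± 0.44, adjusted p = 0.199). Without CR_22h 4, Fasn passed with 1.22 (adjusted p = 0.0488). The citrate carrier Slc25a1 rose by 1.28 ± 0.22 (adjusted p = 0.000304). The members that fell were the elongases Elovl5, Elovl3 and Elovl2. Elovl5, which lengthens polyunsaturated fatty acids, had 285, 289.8, 298 and 168 CPM in CR_22h, against 1086, 453 and 470.3 CPM in F_22h (fold change -1.36 ± 0.29, adjusted p = 0.00293). Without F_22h 1, Elovl5 (adjusted p = 0.107) lost its call. Elovl3 lost its call without CR_22h 1, CR_22h 2, F_22h 1 or F_22h 3 (adjusted p of 0.052 to 0.0944). Elovl2 lost its call without CR_22h 4, F_22h 1 or F_22h 2 (adjusted p of 0.0714 to 0.373). The number that rose was 6 without CR_22h 3, and the number that fell was 4 without CR_22h 3 and 0 without F_22h 1. On the 7 compared libraries alone, 2 rose and 0 fell, and Srebf1 did not pass (adjusted p = 0.0567).

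Genes of glucose use rose in part. Of 23 measured glycolysis and glucose uptake genes 4 rose and 1 fell. Pklr, the liver pyruvate kinase, had 339, 366, 222 and 84.1 CPM in CR_22h, against 49.9, 59.0 and 72.8 CPM in F_22h (fold change 2.06 ± 0.41, adjusted p = 0.00165). The groups did not overlap for Pklr. Khk, the fructose kinase, rose by 1.69 ± 0.33 (adjusted p = 0.00133), and Ldha, lactate dehydrogenase, changed by -0.96 ± 0.25 (adjusted p = 0.0129). Without F_22h 1, Ldha (adjusted p = 0.145) lost its call. Of 16 genes of glycogen metabolism 3 rose and 1 fell. Ugp2, which makes the UDP-glucose for glycogen, kept its call in each of the 7 fits, with 461, 477, 474 and 441 CPM in CR_22h, against 195, 194 and 252 CPM in F_22h (fold change 1.12 ± 0.17, adjusted p = 9.53e-05). The number of glycogen genes that fell was 0 without CR_22h 2, F_22h 1 or F_22h 2 and 1 without CR_22h 3. The number that rose was 1 without CR_22h 1, CR_22h 2, F_22h 1 or F_22h 3 and 3 without CR_22h 3, and of glycolysis genes 2 without CR_22h 2 or F_22h 1 and 5 without CR_22h 3.

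**Figure D4:**
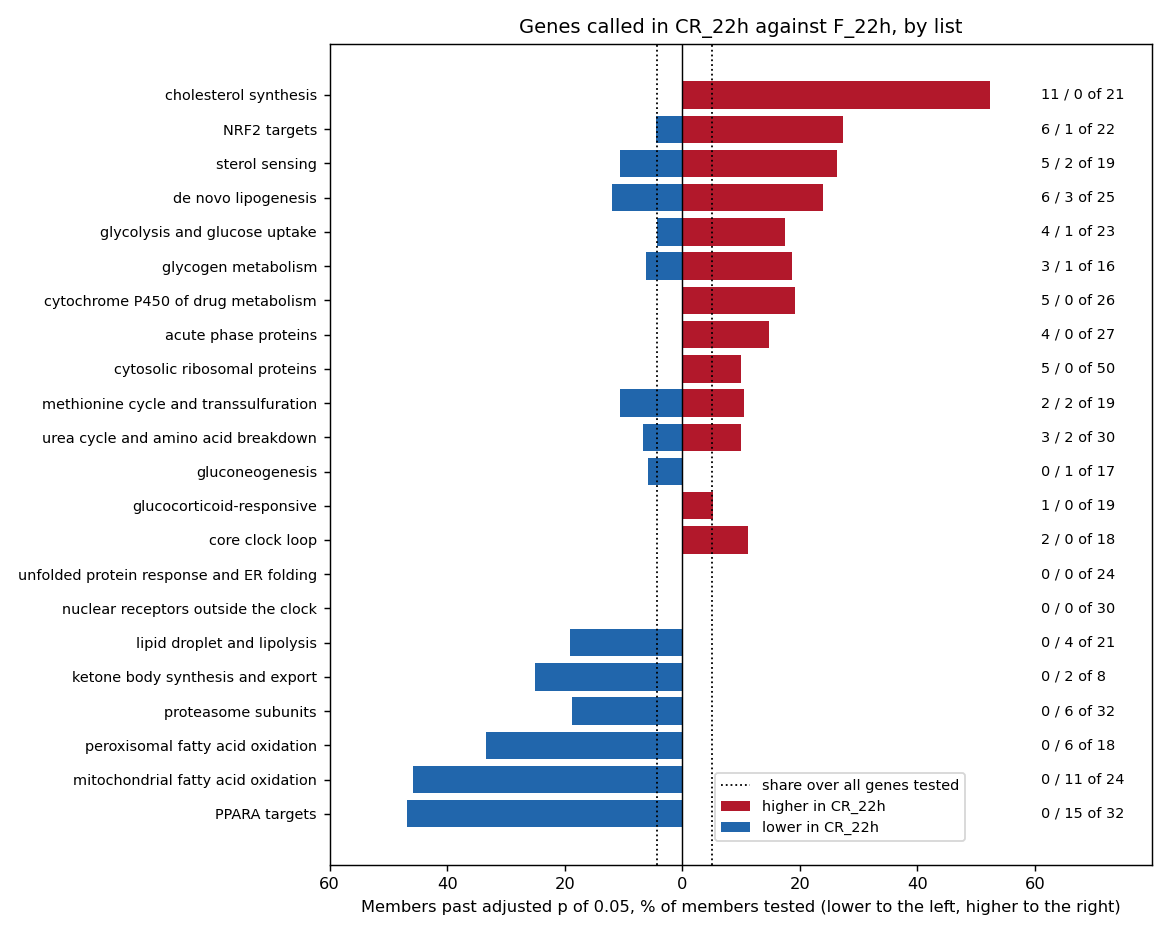
Share of the measured members of 22 gene lists called higher (bars to the right) or lower (bars to the left) in CR_22h against F_22h, in % of members tested, with the counts higher / lower of tested at the right. Dotted lines mark the shares over all genes, 5.13% higher and 4.32% lower. Cholesterol synthesis (11 of 21 higher) and PPARA targets (15 of 32 lower) reach farthest.

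Glutathione transferases, which couple glutathione to toxic compounds, were higher in CR_22h. In the NRF2 target list, which holds genes of antioxidant defence, 6 of 22 measured members rose and all 6 were glutathione transferases, while Srxn1, which repairs peroxiredoxins, fell. Gstm3 (chr3:107963696-107969283) had 177, 185, 48.0 and 77.8 CPM in CR_22h, against 2.78, 8.71 and 3.82 CPM in F_22h, a fold change of 4.59 ± 0.63 (adjusted p = 4.65e-05). Gsta1 had 14.6, 24.7, 1.29 and 9.49 CPM in CR_22h, against 0, 0.114 and 0.362 CPM in F_22h (11 counts over the F_22h libraries), a fold change of 6.13 ± 1.41 (adjusted p = 0.0051). Gstm1, at 3176, 3578, 1018 and 1574 CPM in CR_22h, against 409, 559 and 555 CPM in F_22h, changed by 2.20 ± 0.33 (adjusted p = 9.53e-05). Of these, CR_22h 1 and 2 were highest and CR_22h 3 lowest. Gsta3 was more even, with 1704, 2093, 1463 and 1745 CPM in CR_22h, against 591, 569 and 746 CPM in F_22h (fold change 1.46 ± 0.22, adjusted p = 9.48e-05). Srxn1 had 24.8, 29.5, 22.1 and 12.3 CPM in CR_22h, against 55.2, 44.4 and 49.5 CPM in F_22h (fold change -1.16 ± 0.23, adjusted p = 0.00131). Nqo1 (0.58 ± 0.37, adjusted p = 0.337) and Hmox1 (-0.03 ± 0.27, adjusted p = 0.964), classic NRF2 targets outside this family that were picked after their values were seen, did not pass. Gst genes are close paralogs and reads may be shared between them. On the log2 scale, Gstm3 was at 5.20 without F_22h 2 and Gsta1 was at 7.73 without F_22h 3. The 4 transferases and Srxn1 named here kept their calls in each of the 7 fits, and the number that rose was 9 without CR_22h 3.

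The antioxidant response element, the site of NRF2, was searched on both strands as TGACNNNGC. It was present in 8 of 24 windows (33.3%) of the 18 list members in the promoter table, against 12.4% of all windows and 2 of 7 windows (28.6%) of the called members. The window of Gsta3 (chr1:21240335-21240634, plus strand, GRCm38.p6) holds 1 match, in capitals.
Gsta3: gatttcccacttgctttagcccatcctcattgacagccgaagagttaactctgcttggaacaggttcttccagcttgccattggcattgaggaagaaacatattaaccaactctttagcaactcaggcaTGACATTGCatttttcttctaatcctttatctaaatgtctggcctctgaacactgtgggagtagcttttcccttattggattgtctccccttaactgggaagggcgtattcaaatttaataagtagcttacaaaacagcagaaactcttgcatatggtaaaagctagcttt

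Of 24 measured bile acid genes 2 rose and 1 fell. That is 12.5% of the list, against 9.44% of all genes tested. Cyp2c70, which makes muricholic acids, the hydrophilic bile acids of mice (chr19:40153353-40187333), had the smallest p of all genes. It had 409, 382, 448 and 279.9 CPM in CR_22h, against 23.8, 64.2 and 34.2 CPM in F_22h, a fold change of 3.22 ± 0.36 (adjusted p = 3.54e-06). Cyp8b1, which directs synthesis to cholic acid (chr9:121914356-121916305), had 73.2, 83.8, 84.6 and 24.9 CPM in CR_22h, against 672, 399 and 276 CPM in F_22h, a fold change of -2.75 ± 0.55 (adjusted p = 0.00162). Cyp27a1, of the alternative pathway, rose by 0.89 ± 0.20 (adjusted p = 0.00441). None of the 3 overlapped between groups, and all 3 calls held in each of the 7 fits. Cyp7a1, the rate-limiting enzyme of the classic pathway, had 94.0, 71.3, 219 and 48.5 CPM in CR_22h, against 145, 348 and 242 CPM in F_22h and did not pass (fold change -1.18 ± 0.63, adjusted p = 0.242). The number that fell was 2 without CR_22h 1 or CR_22h 3.

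Methyl group metabolism changed at 4 of 19 measured genes. Bhmt, which remakes methionine from homocysteine with betaine, had 1147, 1358, 1057 and 549 CPM in CR_22h, against 5784, 8905 and 5716 CPM in F_22h. Mat1a, which makes S-adenosylmethionine, had 4583, 4865, 2815 and 3791 CPM in CR_22h, against 10330, 11240 and 9358 CPM in F_22h. The groups did not overlap for either gene, with fold changes of -2.73 ± 0.49 (adjusted p = 0.000518) for Bhmt and -1.36 ± 0.29 (adjusted p = 0.00311) for Mat1a. The genes that rose use S-adenosylmethionine, Pemt to make phosphatidylcholine (0.94 ± 0.16, adjusted p = 0.000341) and Gamt to make creatine (1.81 ± 0.39, adjusted p = 0.00321). All 4 calls held in each of the 7 fits. In the urea cycle and amino acid breakdown, 3 of 30 rose and 2 fell. Glud1, glutamate dehydrogenase, had 1816, 1833, 1357 and 1543 CPM in CR_22h, against 1083, 918 and 998 CPM in F_22h (fold change 0.71 ± 0.17, adjusted p = 0.00603). Oat, ornithine aminotransferase, had 550.4, 523, 881 and 723 CPM in CR_22h, against 1394, 1158 and 1615 CPM in F_22h (fold change -1.05 ± 0.29, adjusted p = 0.0206). Oat lost its call without CR_22h 1, CR_22h 2, F_22h 1 or F_22h 3 (adjusted p of 0.0614 to 0.0733). The number of these genes that rose was 1 without CR_22h 1, CR_22h 2 or F_22h 1 and 3 without CR_22h 3, and the number that fell was 0 without CR_22h 1, CR_22h 2, F_22h 1 or F_22h 3 and 1 without CR_22h 3, CR_22h 4 or F_22h 2.

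Genes that passed in the list of apolipoproteins and lipoprotein assembly moved both ways. Of 20 measured members 2 fell, Apoa4 and Apoa1, and 1 rose, Angptl8, a feeding-induced partner of lipase inhibitors. That is 15.0% of the list, against 9.44% of all genes tested. Apoa4 had 522, 738, 144 and 83.8 CPM in CR_22h, against 5064, 4046 and 442 CPM in F_22h, overlapping through F_22h 3 (fold change -3.10 ± 0.76, adjusted p = 0.00845). Apoa1, the main protein of HDL, had 3535, 5487, 4915 and 4531 CPM in CR_22h, against 12420, 10580 and 6301 CPM in F_22h (fold change -1.08 ± 0.32, adjusted p = 0.0302). Without F_22h 1, Apoa4 (adjusted p = 0.0642) lost its call. Apoa1 lost its call without CR_22h 1, F_22h 1 or F_22h 2 (adjusted p of 0.0859 to 0.176). Angptl8 lost its call without CR_22h 2, CR_22h 3, F_22h 1 or F_22h 2 (adjusted p of 0.0525 to 0.152).

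The proteasome genes that passed fell, and the ribosomal protein genes that passed rose. Of 32 measured proteasome subunits 0 rose and 6 fell, with a median of -0.19. Psmd1, a subunit of the regulatory cap, had 93.9, 87.9, 53.03 and 62.9 CPM in CR_22h, against 175, 145 and 114 CPM in F_22h (fold change -0.96 ± 0.21, adjusted p = 0.00295). All 6 belong to the regulatory cap by name (Psmd1, Psmd2, Psmd12, Psmd14, Psmc2 and Psmc3). Of 50 measured cytosolic ribosomal protein genes 5 rose and 0 fell, and their median was 0.66. Rpl28 had 191, 301, 184 and 153 CPM in CR_22h, against 99.9, 94.1 and 119.6 CPM in F_22h (fold change 0.99 ± 0.22, adjusted p = 0.0039). Across all genes, the fold change fell with transcript length (Spearman's rho -0.15 over 13783 genes), and ribosomal protein transcripts are short. With the length trend removed from each library, 5 ribosomal protein genes rose and 8 proteasome genes fell. The proteasome count was 11 without CR_22h 2, 4 without CR_22h 3 and 1 without F_22h 1, and the ribosomal count was 1 without CR_22h 2, F_22h 1 or F_22h 2, 4 without CR_22h 3 and 18 without F_22h 3. Both counts were 0 on the 7 compared libraries alone. Without F_22h 1, Psmd12 (adjusted p = 0.0849) and Psmc2 (adjusted p = 0.0814) lost their calls. Psmd14 lost its call without F_22h 1 or F_22h 3 (adjusted p of 0.0549 to 0.0712). Psmc3 lost its call without CR_22h 1, CR_22h 3, CR_22h 4 or F_22h 1 (adjusted p of 0.0631 to 0.207). Psmd2 lost its call without CR_22h 3, CR_22h 4, F_22h 1 or F_22h 2 (adjusted p of 0.0776 to 0.225).

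Most core clock genes did not pass the test at this hour. Of 18 measured core clock genes 2 rose, the repressors Cry2 and Bhlhe40, and 0 fell. These 2 are 11.1% of the list, while 5.13% of all genes tested rose. Arntl, which drives the positive arm, had 4.12, 5.51, 0.462 and 2.98 CPM in CR_22h, against 4.35, 4.16 and 6.64 CPM in F_22h (fold change -0.65 ± 0.65, adjusted p = 0.575). Its partner Npas2 had 0, 0, 0.0330 and 0.496 CPM in CR_22h, against 0.0506, 0 and 0.282 CPM in F_22h, near 0 in both. Nr1d1, of the repressive arm, had 50.6, 42.2, 40.0 and 7.83 CPM in CR_22h, against 20.6, 21.1 and 16.9 CPM in F_22h (fold change 0.85 ± 0.71, adjusted p = 0.486). Per1, Per2 and Dbp had fold changes of 0.37 ± 0.61, 0.27 ± 0.54 and 0.94 ± 0.81, and none passed (adjusted p of 0.752, 0.802 and 0.504). Cry2 had 47.7, 42.2, 45.8 and 34.7 CPM in CR_22h, against 27.5, 27.7 and 31.6 CPM in F_22h (fold change 0.56 ± 0.16, adjusted p = 0.0237). Cry2 lost its call without CR_22h 1, F_22h 1 or F_22h 2 (adjusted p of 0.0677 to 0.114). Bhlhe40 lost its call without CR_22h 1, CR_22h 2, F_22h 1 or F_22h 3 (adjusted p of 0.0835 to 0.19).

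Among secreted and iron-binding proteins, 4 of 27 acute phase genes rose and 0 fell. Orm2 had 51.8, 55.2, 22.1 and 27.9 CPM in CR_22h, against 2.12, 6.72 and 5.47 CPM in F_22h (fold change 3.04 ± 0.58, adjusted p = 0.00105), while its neighbour and paralog Orm1 changed by 0.81 ± 0.25 (adjusted p = 0.0375). The thyroid hormone carrier Ttr rose by 0.91 ± 0.22 (adjusted p = 0.00706). Without F_22h 2, Ttr (adjusted p = 0.0511) lost its call. Orm1 lost its call without CR_22h 2, CR_22h 3, F_22h 1 or F_22h 2 (adjusted p of 0.088 to 0.232). The number of acute phase genes that rose was 2 without CR_22h 2, F_22h 1 or F_22h 2 and 4 without CR_22h 3. The hepcidin paralog Hamp2 had 87.1, 119, 872 and 121 CPM in CR_22h, against 15.1, 45.7 and 40.1 CPM in F_22h, with CR_22h 3 far above the rest (fold change 3.16 ± 0.92, adjusted p = 0.0264), and its fold change was 1.70 without CR_22h 3 (adjusted p = 0.167). Hamp2 lost its call without CR_22h 3, F_22h 1, F_22h 2 or F_22h 3 (adjusted p of 0.0571 to 0.167). Of 26 cytochrome P450 genes of drug metabolism 5 rose and 0 fell, and 5 without CR_22h 3 and 2 without F_22h 1 or F_22h 2 rose. Cyp1a2, which oxidises caffeine, had 427, 332, 924 and 585 CPM in CR_22h, against 133, 129.6 and 199 CPM in F_22h (fold change 1.88 ± 0.31, adjusted p = 0.000258). Cyp26a1, which degrades retinoic acid, had 29.6, 28.7, 28.4 and 10.2 CPM in CR_22h, against 1.26, 5.35 and 3.66 CPM in F_22h (fold change 2.83 ± 0.50, adjusted p = 0.00048). Cyp2r1, a vitamin D hydroxylase, rose by 1.53 ± 0.27 (adjusted p = 0.000433).

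Other genes of the largest changes lie outside the pathways above. Dsg1c, a desmosomal cadherin, had 57.4, 54.0, 52.3 and 78.5 CPM in CR_22h, against 5.52, 8.83 and 6.32 CPM in F_22h (fold change 3.14 ± 0.47, adjusted p = 9.48e-05). Aqp8, a water and hydrogen peroxide channel, had 29.1, 48.4, 160 and 15.9 CPM in CR_22h, against 8.25, 9.85 and 5.55 CPM in F_22h (fold change 3.01 ± 0.63, adjusted p = 0.0025), and its fold change was 1.99 without CR_22h 3 (adjusted p = 0.016). Dct, Hcn3 and Snhg11 also rose, by 3.55 ± 0.78, 2.86 ± 0.60 and 3.33 ± 0.91, at group means of at most 13.3 CPM. Cntnap1, known for its role at myelinated axons, had 0.729, 0.411, 2.15 and 0.441 CPM in CR_22h, against 54.2, 24.4 and 7.65 CPM in F_22h (fold change -4.88 ± 0.57, adjusted p = 3.54e-06). Lamb3, a laminin chain, had 5.06, 4.52, 1.68 and 2.70 CPM in CR_22h, against 67.4, 20.8 and 13.3 CPM in F_22h (fold change -3.27 ± 0.51, adjusted p = 0.000115). Both fell without overlap and F_22h 1 was the highest library for each. Cyp17a1, a steroid hydroxylase, had 69.5, 80.1, 38.1 and 18.8 CPM in CR_22h, against 449, 710.1 and 129.9 CPM in F_22h (fold change -3.06 ± 0.78, adjusted p = 0.0116). Cgref1, Agap2, Lad1, Myom3 and Sult3a2 changed by -4.54 ± 0.80, -3.38 ± 0.61, -3.08 ± 0.70, -3.76 ± 0.85 and -2.81 ± 0.84, all with a group mean of at most 9.75 CPM. On the log2 scale, Dct was at 2.79 without CR_22h 3 and 4.90 without F_22h 3, Hcn3 was at 4.03 without F_22h 3, Snhg11 was at 4.05 without F_22h 3, Cntnap1 was at -5.74 without CR_22h 3 and -4.04 without F_22h 1, Lamb3 was at -2.28 without F_22h 1, Cgref1 was at -5.60 without CR_22h 2 and -2.88 without F_22h 1, Agap2 was at -2.69 without F_22h 1, Myom3 was at -2.38 without F_22h 2 and Sult3a2 was at -1.94 without F_22h 3. Without F_22h 2, Cyp17a1 (adjusted p = 0.0717) and Myom3 (adjusted p = 0.111) lost their calls. Snhg11 lost its call without F_22h 1 or F_22h 2 (adjusted p of 0.0871 to 0.0931). Sult3a2 lost its call without CR_22h 1, CR_22h 2, F_22h 1 or F_22h 3 (adjusted p of 0.0588 to 0.169).

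The list of growth hormone and IGF genes, with 14 measured, had 2 that fell, Igfbp3 (-1.26 ± 0.30, adjusted p = 0.00735) and Stat5a (-0.89 ± 0.23, adjusted p = 0.0113). Of 25 female-biased genes 3 fell and 0 rose (1 without CR_22h 1, CR_22h 2 or F_22h 1, 3 without CR_22h 3 and 0 without F_22h 2), and of 19 male-biased genes 2 fell and 0 rose (0 without CR_22h 1 or CR_22h 2, 4 without CR_22h 3 and 1 without F_22h 1 or F_22h 3). The shares called were 14.3% of the growth hormone list, 12.0% of the female-biased and 10.5% of the male-biased list, near the 9.44% of all genes. The list medians were 0.04, 0.12 and -0.25 in the same order. Without F_22h 2, Igfbp3 (adjusted p = 0.0817) lost its call. Without F_22h 1, Stat5a (adjusted p = 0.16) lost its call. The metallothioneins Mt1 and Mt2, zinc-binding proteins whose reads may be shared, did not pass. Mt1 had 56.3, 54.4, 352 and 89.9 CPM in CR_22h, against 149.7, 374 and 88.2 CPM in F_22h, with CR_22h 3 the highest of its group (fold change -0.56 ± 0.72, adjusted p = 0.672). Mt2 had 6.09, 7.89, 96.8 and 12.8 CPM in CR_22h, against 50.2, 146 and 31.5 CPM in F_22h, with a fold change of -1.29 ± 0.96 (adjusted p = 0.423) and -3.09 without CR_22h 3 (adjusted p = 0.0427). By edgeR, 0 genes passed in several lists of stress and signalling. Over all genes, 25.1% had an unadjusted p below 0.05, DESeq2 called 1798 of 13786 and limma 11.7%. Of 24 genes of the unfolded protein response, 3 had an unadjusted p below 0.05, and DESeq2 called 1 and limma 0. Of 17 heat shock genes 3 had such a p, and DESeq2 and limma called 0. Of 18 p53 and growth arrest genes 7 had such a p, and DESeq2 called 3 and limma 1. Of 30 nuclear receptors outside the clock 7 had such a p, and DESeq2 and limma each called 1.

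Single genes passed in several smaller lists, beside 9.44% of all genes called (5.13% higher and 4.32% lower). Of 17 measured markers of pericentral hepatocytes, the cells around the central vein, 3 rose and 1 fell, and of 16 periportal markers 0 passed, with 1 at an unadjusted p below 0.05 and 0 by DESeq2 and limma. Rgn, a calcium-binding lactonase of pericentral cells, had 756, 776, 1338 and 897 CPM in CR_22h, against 300, 324 and 489 CPM in F_22h (fold change 1.34 ± 0.26, adjusted p = 0.00105). Of 18 retinoid genes 2 rose and 1 fell, and Rdh11, a retinol dehydrogenase, changed by 1.64 ± 0.34 (adjusted p = 0.00245) while Rdh16, of the same enzyme class, changed by -0.93 ± 0.23 (adjusted p = 0.0103). Of 22 proliferation genes 2 rose, among them Tk1, which makes thymidine nucleotides, with 26.2, 36.2, 60.6 and 46.8 CPM in CR_22h, against 7.08, 10.5 and 18.7 CPM in F_22h (fold change 1.80 ± 0.32, adjusted p = 0.000414). Mbl2, a lectin that starts complement, was the 1 gene that rose of 27 in complement and coagulation (0.90 ± 0.21, adjusted p = 0.00621), and 0 fell. Cox5a, a subunit of cytochrome oxidase, was 1 of 2 that rose among 40 nuclear-encoded respiratory chain genes (1.00 ± 0.23, adjusted p = 0.00464), and 0 fell. The shares that rose, 3.7% in complement and coagulation and 5.0% in the respiratory chain, do not exceed the 5.13% over all genes. Rgn, Rdh11, Tk1, Mbl2 and Cox5a kept their calls in each of the 7 fits, and the respiratory chain count was 1 without CR_22h 2, F_22h 1 or F_22h 2, 4 without CR_22h 3 and 7 without F_22h 3. The number of proliferation genes that rose was 1 without CR_22h 2, F_22h 1 or F_22h 2 and 2 without CR_22h 3, and the number of pericentral markers that fell was 0 without CR_22h 1, CR_22h 2, F_22h 1 or F_22h 3 and 1 without CR_22h 3. Rdh16 lost its call without F_22h 1 or F_22h 3 (adjusted p of 0.0532 to 0.105).

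The marker sums of other cell types given here overlapped between CR_22h and F_22h. Both groups held hepatocyte RNA throughout, with Alb at 137000, 130000, 97580 and 73300 CPM in CR_22h, against 60760, 86790 and 47530 CPM in F_22h. The 16 Kupffer cell and macrophage markers summed to 199, 247.8, 485 and 252.5 CPM in CR_22h 1 to 4, against 353, 614.5 and 568 CPM in F_22h. Of these genes 0 rose and 1 fell, Cd163 (-1.39 ± 0.29, adjusted p = 0.00247), while 9 fell without CR_22h 3 and 2 without F_22h 3. The 7 erythroid markers summed to 355, 308, 1615 and 3728 CPM in CR_22h, against 3882, 2773 and 3150 CPM in F_22h, with 1 that fell, Slc4a1. When only CR_22h 1 and 2 stood for CR, a choice made after seeing the data, 6 fell. In that fit 14.8% of all genes were called (7.82% higher and 6.98% lower). It left out CR_22h 3 and CR_22h 4, which held the higher erythroid sums of CR_22h, so the count of 6 depends on that choice. Sinusoidal endothelial markers (18 genes) summed to 380 to 611.5 CPM in CR_22h, against 413 to 613 CPM in F_22h, and stellate cell markers (18 genes) to 480 to 719 CPM in CR_22h, against 582 to 664.5 CPM in F_22h. The 13 lymphocyte markers summed to at most 13.7 CPM, the 11 neutrophil markers to at most 12.1 CPM and the 12 pancreatic markers to at most 11.9 CPM in any of the 7 libraries, and CR_22h 3 held the highest lymphocyte and neutrophil sums. The part of these markers in the results above was not tested. Slc4a1 lost its call without CR_22h 1, CR_22h 2, F_22h 1 or F_22h 2 (adjusted p of 0.0865 to 0.133).

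The same comparison at 14 h and 6 h, with 3 libraries in each group, was set beside that at 22 h, with each time's calls made in the same fit. Within the calls of 22 h, 734 (56.4%) were called in the same direction at 14 h, which is 31.2% of the 2354 genes called there (17.1% of the genes tested), and 2 were called in the opposite direction. At 6 h the overlap was 181 genes (13.9% of the 1302 and 19.3% of the 937 called at 6 h, which are 6.8% of the genes tested), with 28 in the opposite direction. At all 3 times, 79 genes were higher and 82 lower in CR. Cidec changed by -4.12 ± 1.01 at 6 h, -8.26 ± 1.12 at 14 h and -6.08 ± 0.85 at 22 h, and Plin2 by -1.90 ± 0.27, -1.998 ± 0.27 and -1.45 ± 0.24. Of the cholesterol synthesis genes 17 rose at 6 h and 18 at 14 h, where 3.39% and 9.1% of all genes rose, and 11 rose at 22 h. Of the PPARA targets 10 fell at 6 h and 26 at 14 h, where 3.41% and 7.97% of all genes fell, and 15 fell at 22 h. Counts called at each time do not test a change between times. By the test of the difference, 0 members of these 2 lists passed for 22 h against 14 h (0.087% of all genes). Against 6 h, 2 cholesterol synthesis genes and 1 PPARA target passed (4.02% of all genes). The comparisons at 6, 14 and 22 h use separate libraries, whose labelled ages differ (14 to 16 months in CR_6h and 17 to 19 in F_6h, 23 to 25 in CR_14h and 26 to 28 in F_14h), so age and time cannot be told apart if these ages are right.

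The difference between the effect at 22 h and that at 14 h was tested for each gene. It passed for 12 of 13786 genes (0.087%), 8 with a higher (0.058%) and 4 with a lower (0.029%) CR against F difference at 22 h, while 1128 had an unadjusted p below 0.05 (8.18%) and DESeq2 called 74. Tob1, an antiproliferative protein, had 230.5, 231, 185 and 355 CPM in CR_22h, against 165, 149.6 and 138 CPM in F_22h, and 96.4, 102 and 106 CPM in CR_14h, against 192, 193 and 171 CPM in F_14h. It was higher in CR at 22 h and lower in CR at 14 h, with no overlap at either time (difference 1.60 ± 0.23, adjusted p = 0.000785). Slc25a25, a mitochondrial carrier of ATP-Mg and phosphate, had 334, 369, 211 and 579 CPM in CR_22h, against 576, 428 and 222 CPM in F_22h, and 21.1, 42.6 and 53.4 CPM in CR_14h, against 658, 376 and 302 CPM in F_14h. The groups overlapped at 22 h and were far apart at 14 h (difference 3.38 ± 0.57, adjusted p = 0.00712). Dusp1, a phosphatase of MAP kinases, had 52.2, 58.5, 50.9 and 84.2 CPM in CR_22h, against 60.7, 48.0 and 34.9 CPM in F_22h, and 12.0, 10.9 and 9.47 CPM in CR_14h, against 36.0, 54.3 and 53.4 CPM in F_14h (difference 2.51 ± 0.43, adjusted p = 0.00712). Sdr42e1, a steroid dehydrogenase-like gene, had 52.9, 55.4, 59.0 and 40.8 CPM in CR_22h, against 123, 114 and 118 CPM in F_22h, and 99.0, 132 and 147 CPM in CR_14h, against 117, 126 and 91.4 CPM in F_14h (difference -1.37 ± 0.24, adjusted p = 0.00712). Eif3j1, Fchsd2 and Slc25a22 also had a higher difference at 22 h, and Rnf144b and Slc41a2 a lower one. G6pc, which fell at 14 h (-2.52 ± 0.48, adjusted p = 0.000562), differed between the times by 2.32 ± 0.63 without passing (adjusted p = 0.184). The count was 69 without CR_22h 3, 22 without F_14h 2, 7 without CR_22h 4, 5 without F_14h 3 and 4 without F_22h 3.

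Against 6 h the difference passed for 554 genes (4.02%), 293 with a higher (2.13%) and 261 with a lower (1.89%) CR against F difference at 22 h. Cyp2c70 had 408, 345 and 567 CPM in CR_6h, against 434, 519 and 375 CPM in F_6h, where the groups overlapped, and differed from its 22 h effect by 3.23 ± 0.48 (adjusted p = 0.000317). Cyp1a2 had 439, 337 and 280.4 CPM in CR_6h, against 742, 744 and 787 CPM in F_6h, and was lower in CR there and higher at 22 h (difference 2.99 ± 0.44, adjusted p = 0.000317). Gabarapl1, which helps close autophagosomes, had 332, 367, 302 and 419.8 CPM in CR_22h, against 236, 248 and 177 CPM in F_22h, and 168, 160.3 and 118 CPM in CR_6h, against 446, 464 and 446 CPM in F_6h (difference 2.29 ± 0.31, adjusted p = 0.000274). At 22 h its fold change was 0.69 ± 0.21 (adjusted p = 0.0328). Gabarapl1 lost its call without CR_22h 2, CR_22h 4, F_22h 1, F_22h 2 or F_22h 3 (adjusted p of 0.0512 to 0.129). Angptl4, which overlapped between the groups at 22 h, had 16.1, 22.1 and 13.9 CPM in CR_6h, against 159.6, 178 and 140.4 CPM in F_6h (difference 3.11 ± 0.69, adjusted p = 0.00917). Fasn had 1545, 962 and 1594 CPM in CR_6h, against 123, 161 and 152 CPM in F_6h (difference -2.33 ± 0.64, adjusted p = 0.0333). Mt1, Mt2 and Per2 differed by 6.203 ± 1.18, 7.79 ± 1.70 and -2.84 ± 0.83 (adjusted p of 0.00307, 0.00849 and 0.0454). Other genes with a small p were Snrnp48, Zfand6 and Suds3 with a higher difference, and Slc41a2, Tuba1c, Nek6, Eme2, Hnrnpr and Anks4b with a lower one. The count was 652 without CR_22h 3, and it was lowest at 252 without CR_6h 1, 305 without F_6h 2, 306 without F_22h 1, 334 without F_6h 1, 336 without F_6h 3 and 361 without F_22h 2.

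**Figure D5:**
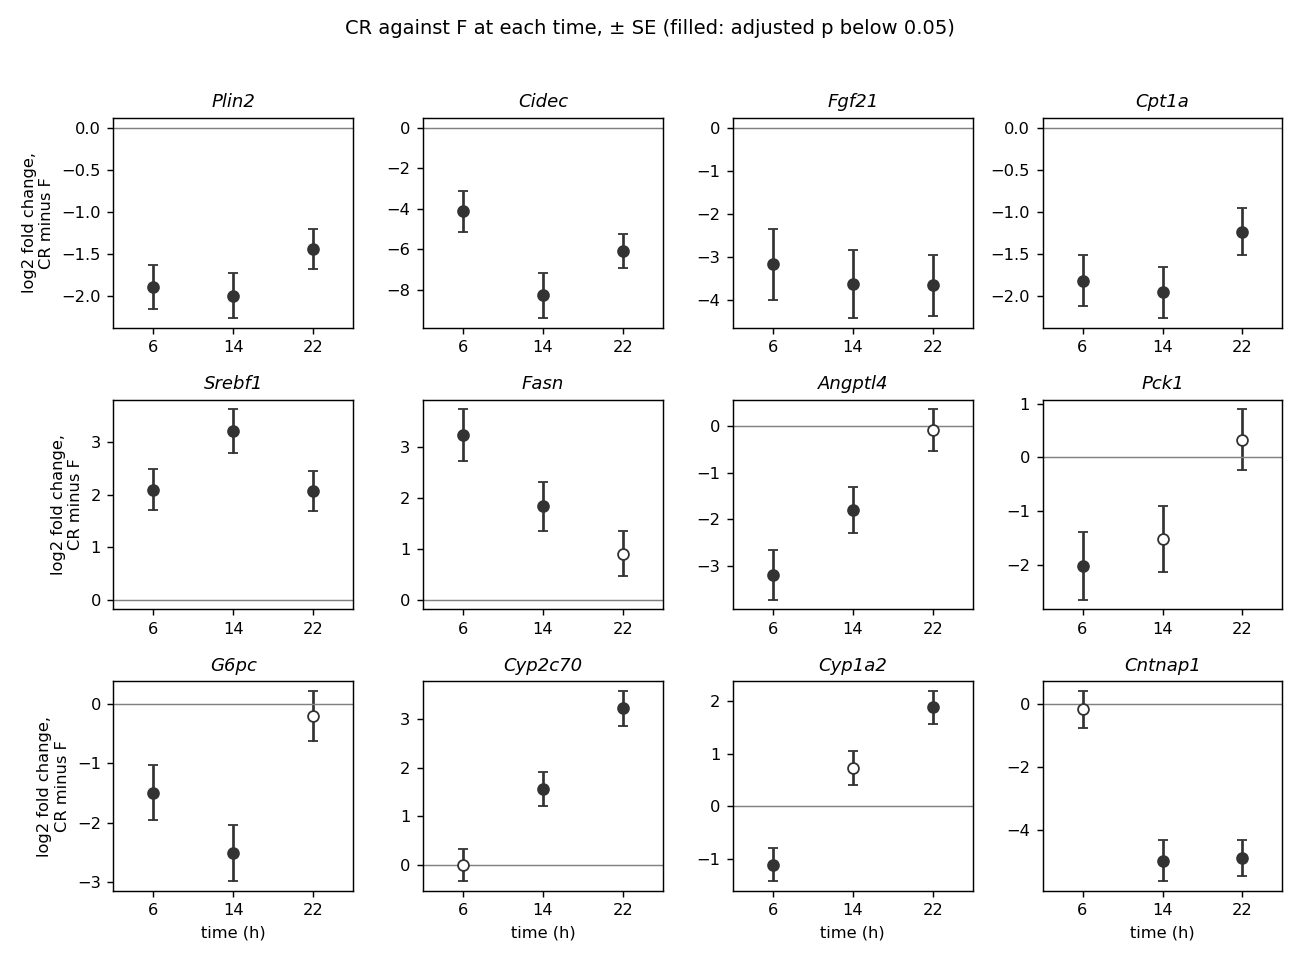
Log2 fold change of CR minus F (y axis, ± SE) at 6, 14 and 22 h (x axis) for 12 genes, filled where the adjusted p is below 0.05. Plin2, Cidec and Fgf21 lie below 0 at each time, Angptl4 lies below 0 at 6 and 14 h and near 0 at 22 h (-0.09 ± 0.45), and Cyp2c70 and Cyp1a2 are highest at 22 h (3.22 ± 0.36 and 1.88 ± 0.31).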

How the data were processed

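Messenger RNA was sequenced from 30 mg of each female liver as 150 bp read pairs, with poly(A) selection and a non-directional library, per the labels. Reads were aligned with Bowtie, allowing up to 2 mismatches, to protein-coding genes of Ensembl GRCm38, and RSEM 1.2.3 gave the expected counts per gene that the authors deposited, per the labels and the submitters' processing notes. A second deposited table holds a rescaled TPM signal, which the authors normalised with EBSeq against a possible batch effect, per the labels, without naming a batch.

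Expected counts were rounded to whole numbers and tested with the quasi-likelihood test of edgeR 4.0.16 (R 4.3.3) on all 38 libraries, with 1 coefficient for each of 13 groups, the low-count filter of edgeR, TMM scaling and Benjamini-Hochberg adjustment over 13786 genes at 0.05. Effects at different times were compared in the same fit. Each SE is the log2 fold change divided by the root of F. CPM uses TMM-scaled totals, which were 17131271 to 30152301 counts before scaling. On simulated counts for CR_22h against F_22h over 13786 genes, 104 of 107 genes changed by 2 (97.2%) and 64 of 93 changed by 1 (68.8%) on the log2 scale were recovered. The changed genes were drawn from those averaging 5 CPM or more, and the groups otherwise shared a common mean with no deviating library. Recovery of genes at lower levels, or with libraries that stand apart, was not measured.

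Genes are named by rule. These are the 12 highest and 12 lowest fold changes among called genes without overlap and averaging 5 CPM or more in either group, leaving out Mup genes and models without a gene symbol, up to 5 called members of each list by smallest p, fixed reference genes of fasting, feeding and the clock, and up to 6 called genes by smallest p in each direction of the time differences, averaging 10 CPM or more. Some genes that the rule names are not reported here, and Psmd2, Elovl2, Lss and Idi1 were added after their values were seen. Members and lists were chosen with earlier results of these data known. Motifs were searched in the RefSeq promoter table. Gene coordinates come from GENCODE M21, which matched 21855 of 21954 symbols. Without strand, overlapping genes cannot be told apart, and reads of close paralogs (Gsta, Gstm, Cyp4a, Cyp2c, Mup, Orm1 and Orm2, Mt1 and Mt2) may be shared. Alternatives used DESeq2 1.42.0, limma 3.58.1 on log2(signal + 1), other filters and scalings, fewer libraries, and 2 choices of libraries added after seeing the data.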

Additional observations from a re-analysis of the deposited data

Results flagged for a closer look

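For 11 of 138 named genes, 1 of the 4 CR_22h libraries stood apart from the other 3 by more than Dixon's 95% limit. Chance alone gives about 1 in 20 groups, and 5 of the 11 gaps lay in CR_22h 3 and 5 in CR_22h 4. CR_22h 3 had 872 CPM of Hamp2 against 87.1 to 121 in the other CR_22h libraries, 352 CPM of Mt1 against 54.4 to 89.9, 96.8 CPM of Mt2 against 6.09 to 12.8, 458 CPM of Insig1 against 305 to 308 and 70.3 CPM of G6pc against 636 to 734. CR_22h 4 had 204 CPM of Pdk4 against 7.07 to 32.7, 0.496 CPM of Npas2 against 0 to 0.0330, 71.0 CPM of Fitm2 against 56.0 to 57.9, 168 CPM of Elovl5 against 285 to 298 and 10.2 CPM of Cyp26a1 against 28.4 to 29.6. CR_22h 2 had 34.9 CPM of Psmd14 against 25.0 to 25.6.

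The CR against F difference at 22 h differed from that at 14 h, by the test of the difference in edgeR, for 10 named genes. The differences of log2 fold changes (22 h minus 14 h) were 1.60 for Tob1, 3.38 for Slc25a25, 1.24 for Eif3j1, 2.51 for Dusp1, 1.29 for Fchsd2, 1.58 for Slc25a22 and 1.64 for Snrnp48, and -1.37 for Sdr42e1, -1.22 for Rnf144b and -3.32 for Slc41a2. Their adjusted p lay between 0.000785 and 0.036.

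Against 6 h, adjusted p values lay between 0.000274 and 0.0454, and of these differences (22 h minus 6 h), those above 0 were 3.23 for Cyp2c70, 2.99 for Cyp1a2, 3.11 for Angptl4, 6.203 for Mt1, 7.79 for Mt2, 1.41 for Soat2, 1.21 for Cyp27a1, 1.302 for Ugp2, 1.31 for Gsta3, 1.46 for Mbl2 and 1.63 for Rgn. Other genes above 0 were Dct (3.67), Dsg1c (3.64), Tk1 (2.06), Gabarapl1 (2.29), Tob1 (1.08), Slc25a25 (2.42), Eif3j1 (0.76), Slc25a22 (1.1995), Snrnp48 (2.28), Zfand6 (1.65) and Suds3 (1.07). Below 0 were Cntnap1 (-4.72), Agap2 (-4.32), Lamb3 (-3.20), Fasn (-2.33), Lss (-1.68), Per2 (-2.84), Srxn1 (-1.47), Psmd1 (-1.40), Psmd14 (-1.22), Slc4a1 (-5.55), Sdr42e1 (-0.88), Rnf144b (-1.37), Slc41a2 (-4.05), Tuba1c (-2.90), Nek6 (-1.57), Eme2 (-2.17), Hnrnpr (-1.32) and Anks4b (-1.69).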

How the results depend on the processing

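The 1302 calls of CR_22h against F_22h became 1305 with DESeq2 size factors, 1126 without the low-count filter, 1798 with the DESeq2 Wald test, 1160 to 1273 with limma and 1322 with the length trend removed, but 260 on the 7 compared libraries alone. Leaving out 1 library gave 483 to 1634, leaving out the 6 libraries that stand apart in the series 1983, and CR_22h 1 and 2 alone 2034. The 12 calls of the effect at 22 h against 14 h became 74 with DESeq2, 1 on the compared libraries alone, 26 with CR_22h 1 and 2 alone, and 4 to 69 with 1 library left out. The 554 calls against 6 h became 882 with DESeq2, 247 on the compared libraries alone, 932 without the libraries that stand apart, and 252 to 740 with 1 library left out. The cause of these shifts was not tested. Replicate numbers are shared between CR_22h and F_22h. The deviations of same-numbered libraries correlated at 0.17, 0.03 and 0.16, and those of differently numbered libraries at -0.27 to 0.195. Whether same-numbered libraries share more than a number was not tested. With the replicate number as a block, 1680 genes were called in CR_22h against F_22h, and the block gave 6 calls for the effect against 14 h and 598 against 6 h. Ppara (adjusted p = 0.0406) and Fasn (adjusted p = 0.0454) passed under the block, and Ppara (adjusted p = 0.0311) with CR_22h 1 and 2 alone. Of the 112 called genes named in the report, 0 changed direction under any alternative run, 44 kept their call in each of them and 64 in each fit that left out 1 library. Some of the 26 genes without a call changed sign. Leaving out 1 library gave log2 fold changes of -0.27 to 0.16 for Angptl4, -1.72 to 1.54 for Pdk4, -0.41 to 0.17 for G6pc, -0.14 to 0.18 for Igf1, -2.84 to 1.84 for Npas2, -1.61 to 0.22 for Mt1, -0.42 to 0.20 for Slc25a25 and -0.11 to 0.18 for Anks4b. Without the libraries that stand apart, the values were 0.14 for Angptl4, 0.22 for Pdk4, 0.15 for G6pc, -0.16 for Igf1, 0.16 for Npas2, 0.047 for Slc25a25 and -0.12 for Anks4b. With CR_22h 1 and 2 alone they were 0.20 for Angptl4, 0.21 for G6pc, -0.46 for Igf1, -0.016 for Per2 and 0.17 for Slc41a2. Igf1 was at -0.10 under the replicate block and -0.026 with the length trend removed. Npas2 was at 0.13 with DESeq2 and at 0.12, 0.031 and 0.12 with limma at a pseudocount of 1, at 0.1, and at 1 with no minimum. Npas2 had few counts in any library, so its direction could not be read at this depth.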

Other observations

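The glutathione transferase and Mup families each moved in a single direction, and both were chosen after their values were seen. Of 22 measured glutathione transferase genes (symbols starting with Gsta, Gstk, Gstm, Gsto, Gstp, Gstt, Gstz or Mgst), 13 were higher and 0 lower in CR_22h, with a median log2 fold change of 1.37, and 12 were higher without CR_22h 3. Of 20 measured Mup genes, which encode the major urinary proteins that carry pheromones, 0 were higher and 11 lower, with a median of -2.90, and 10 were lower without CR_22h 3. Mup17 had 0.214, 0.0411, 1.49 and 16.3 CPM in CR_22h, against 1717, 158 and 1354 CPM in F_22h. In both families reads may be shared between near-identical copies, so the counts of members are not independent.

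Several genes with small p values lie outside the lists and were picked on those p values. Ropn1l, known from sperm flagella, had 16.4, 18.9, 15.9 and 9.21 CPM in CR_22h, against 2.73, 3.87 and 2.94 CPM in F_22h, a fold change of 2.25 ± 0.26 (edgeR, adjusted p = 3.54e-06). Vegfb, a growth factor linked to fatty acid uptake by endothelium, had 23.0, 28.5, 23.1 and 19.1 CPM in CR_22h, against 4.61, 4.44 and 5.19 CPM in F_22h, a fold change of 2.30 ± 0.27 (edgeR, adjusted p = 3.54e-06). Gcat, of threonine breakdown, had 112, 127, 103 and 75.5 CPM in CR_22h, against 33.0, 47.4 and 32.9 CPM in F_22h, and Sord, which makes fructose from sorbitol, had 2066, 2336, 1710 and 1963 CPM in CR_22h, against 835, 674 and 883 CPM in F_22h. Every CR_22h library lay above every F_22h library for these 4 genes. Among genes that were lower in CR_22h, Parp9, of the interferon response, had 19.7, 22.5, 32.4 and 20.6 CPM in CR_22h, against 53.3, 53.1 and 45.4 CPM in F_22h, and Tmem120a, a membrane protein known from fat cells, had 45.3, 56.2, 46.6 and 36.2 CPM in CR_22h, against 154, 99.0 and 136 CPM in F_22h. The 6 genes kept their call without CR_22h 3.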
